A study of Homo sapiens with 30 samples.

Results

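The genes described here were HEY1, HEY2, HEYL and HES1, which encode repressors of the Hairy and Enhancer of split family, ATOH8, which encodes an atonal-type transcription factor, and the Notch genes JAG1, NOTCH1 and NOTCH3. They were chosen by name with earlier results of these data known. The study's own list of genes most regulated by BMP4 already held HEY1 and ATOH8. In that list ATOH8 was printed under the symbol ATOH4, with the description of atonal homolog 8. Every probe that carried one of these 8 gene names on the array was taken, whatever its values. This gave 11 of the 41000 probes measured. HES1 had 3 probes and HEY2 had 2, which are reported singly and numbered from the brightest. All 11 probes had a value on all 30 arrays, and none was removed by a filter.

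The arrays compared RNA of cells that had received recombinant human BMP4, a secreted ligand of the transforming growth factor beta superfamily, with RNA of cells that had received vehicle. The established human breast cancer lines ZR-75-30, SK-BR-3, MDA-MB-361, HCC1954 and HCC1419 were each collected 30 min and 1, 3, 6, 12 and 24 h after the addition. Each of the 6 time points therefore had 5 arrays, 1 per line, and the control of every array was vehicle-treated cells of the same line and time. Triplicate wells had been pooled before extraction, so the spread given below is that between the lines, and there was no second array of any line at any time. Per the study's text, the lines had been selected for low endogenous BMP4. All values named ratios are log2 of BMP4 (Cy5) over vehicle (Cy3) after correction for background and loess normalization per array. A whole culture was measured, so a change in the share of cells that express a gene and a change in each cell cannot be told apart.

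Notch receptors are cut when a ligand of the Jagged or Delta-like type on a neighbouring cell binds them, and the released intracellular domain joins the DNA-binding protein RBPJ at target genes. HES and HEY genes are the classical targets. Their products are basic helix-loop-helix (bHLH) proteins that repress transcription, among others from their own promoters, and HES1 transcripts are short-lived and can rise and fall within hours. BMP signalling acts through SMAD proteins and is known to induce several of the same genes, HEY1 and ATOH8 among them, besides the ID genes, whose products bind bHLH partners and keep them from DNA.

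The epithelial markers KRT8, KRT18, KRT19, EPCAM and ERBB2 were well above background in all 5 lines by at least 1 probe each, and CDH1 was so in 4. Of the 8 markers of other cell types, PTPRC was at background on all arrays and the COL1A2 probes on all but 1. PECAM1 was detected in 1 line and CDH5 in 2, whereas CD68, COL1A1, ACTA2 and VIM were detected in 4 or 5. No marker probe passed the test of change with BMP4 used below for the members. Agilent's extraction software gave a slope of observed on expected ratio of the spike-in controls between 0.525 and 0.877 on the 30 arrays. Its own log ratios were thus compressed, and no such slope was computed for the ratios used here. Dyes were not swapped, and a ratio set against 0 contains any constant dye bias of its probe, which a difference between time points does not.

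The stretches of DNA just upstream of HES1, HEYL and ATOH8 are shown because these genes were called at different times, as described below. HES1 was called higher with BMP4 at 1 h, ATOH8 at 12 and 24 h, and HEYL at no time. The sequences are the 250 bases before the RefSeq start of each gene in build GRCh38.p14. In the first pair capitals mark TGGGAA or its reverse TTCCCA, the core of the sequence that RBPJ binds, and in ATOH8 they mark CANNTG, the E box of bHLH proteins (N is any base).
HES1, chr3:194135898-194136147, plus strand: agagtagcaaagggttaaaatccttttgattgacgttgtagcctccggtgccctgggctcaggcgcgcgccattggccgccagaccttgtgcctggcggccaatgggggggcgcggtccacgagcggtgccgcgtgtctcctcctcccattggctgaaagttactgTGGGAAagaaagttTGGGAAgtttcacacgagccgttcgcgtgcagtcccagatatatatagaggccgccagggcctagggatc
HEYL, chr1:39639644-39639893, minus strand: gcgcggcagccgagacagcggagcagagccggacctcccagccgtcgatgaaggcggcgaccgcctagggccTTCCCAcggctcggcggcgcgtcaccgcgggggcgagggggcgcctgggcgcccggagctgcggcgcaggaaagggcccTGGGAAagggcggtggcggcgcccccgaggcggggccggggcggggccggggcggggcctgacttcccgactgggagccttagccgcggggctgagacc
ATOH8, chr2:85753741-85753990, plus strand: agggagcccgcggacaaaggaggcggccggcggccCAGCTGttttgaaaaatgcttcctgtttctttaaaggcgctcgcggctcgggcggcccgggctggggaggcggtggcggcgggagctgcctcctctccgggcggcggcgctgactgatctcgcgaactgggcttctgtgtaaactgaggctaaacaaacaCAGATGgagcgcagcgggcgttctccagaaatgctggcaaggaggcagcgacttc
HES1 held TGGGAA at 84 to 79 and again at 70 to 65 bases before the start, and HEYL held it on either strand at 178 to 173 and 99 to 94. HEY2 had 1 match, and ATOH8, JAG1, NOTCH1 and NOTCH3 had 0. Of 35116 promoters of the same length, 20.8% held this motif. The N box CACNAG, which HES proteins bind, occurred 3 times in HES1, once in NOTCH3 and in 32.0% of all promoters, and CANNTG occurred 2 times in ATOH8 and in 61.8%. The GC-rich GGCGCC of SMAD-bound elements was found 3 times in HEYL and once each in HEY2 and NOTCH1 (16.4% of all promoters), and in neither HES1 nor ATOH8. The longer SMAD element GTCTAGAC was in 0 of the 7 promoters searched, those of all members but HEY1, and in 0.182% of all. Both strands were searched. A match is a run of letters and no evidence of binding, and a window without one says nothing of sites elsewhere.

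The first question was which of the genes responded to BMP4, and when. HEY1 and HES1 were both higher with BMP4 at 1 h, when 4 of the 11 probes passed the test against 0 (limma, adjusted p under 0.05 over all probes) while 0.612% of all probes were called higher. HEY1 was also called at each later time, while the HES1 probes were within 0.07 of 0 at 3 h, and the test of this difference, given below, was not passed. ATOH8 was called at 12 and 24 h, and under some settings from 3 h on, and HEY2, HEYL, JAG1, NOTCH1 and NOTCH3 passed at no time point. At 30 min 0 members were called, and 0.0585% of all probes were called higher. HEY1 alone was called at 3 and 6 h, where 0.29% and 0.139% of all probes were called higher, and HEY1 and ATOH8 at 12 and 24 h, where 0.351% and 1.06% were. The 11 probes had a median ratio of 0.13 at 1 h and 0.07 at 24 h, against 0.00 for all probes at both times. As the members were chosen with earlier results known, these counts and shares are descriptions and no test of the group.

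**Figure D1:**
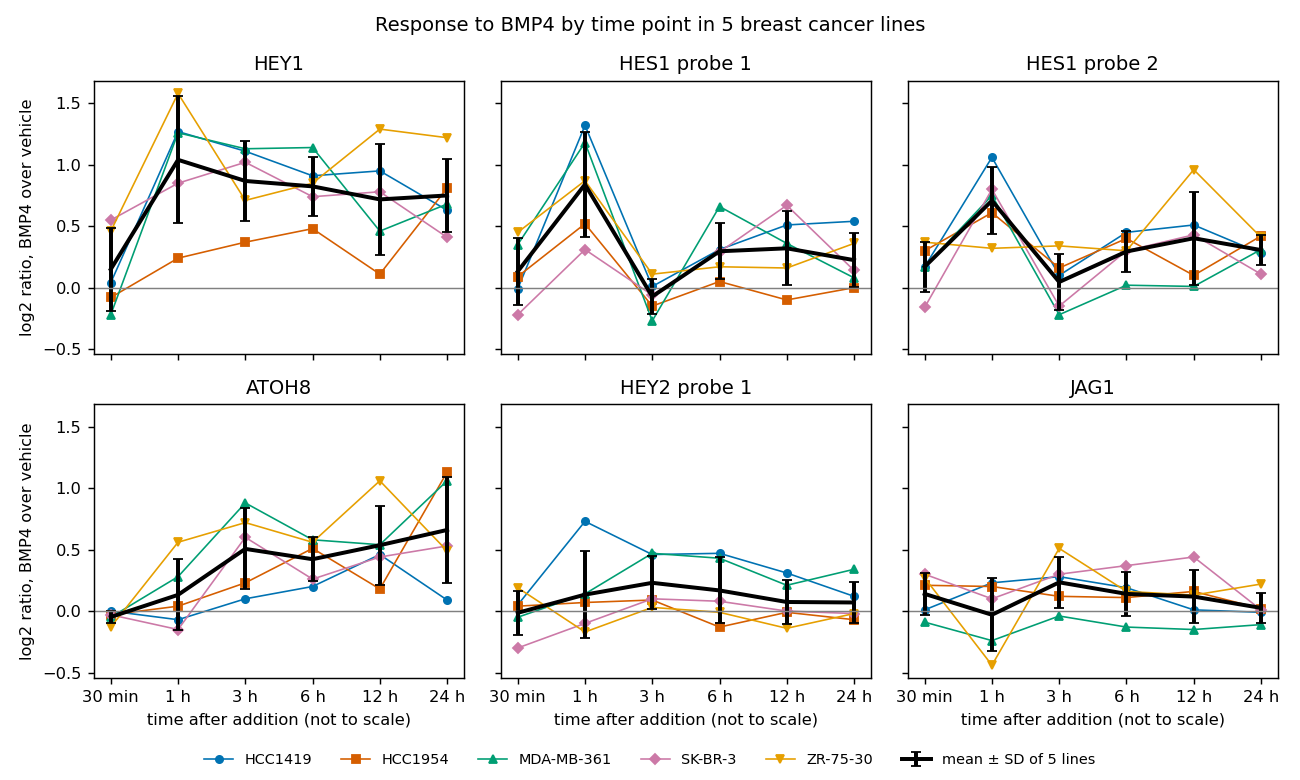
Log2 ratio of BMP4 over vehicle (vertical axis) at the 6 time points (horizontal axis, evenly spaced) for 6 probes. Coloured lines are the 5 cell lines and the black line is their mean with the SD. HEY1 reached a mean of 1.04 at 1 h and stayed at 0.72 or more, the HES1 probes peaked at 1 h and were near 0 at 3 h, and ATOH8 reached 0.66 at 24 h.

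HEY1 is a target of both Notch and SMAD signalling and encodes a repressor. It was read by probe A_32_P83845 at chr8:80838867-80838926 of build hg18, minus strand, and was well above background in both channels on all 30 arrays. At 30 min its ratio was 0.04 in HCC1419 and −0.08 in HCC1954, while MDA-MB-361 read −0.22, SK-BR-3 0.55 and ZR-75-30 0.46. At 1 h it was 1.27, 0.24, 1.26, 0.85 and 1.58 in the same order. Every line was above its own 30 min value, and the 1 h value of HCC1954 lay within the range of the 30 min values.

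The mean ratio of HEY1 was 0.15 ± 0.34 (SD, n = 5) at 30 min, and at 1, 3, 6, 12 and 24 h it was 1.04 ± 0.52, 0.87 ± 0.33, 0.82 ± 0.24, 0.72 ± 0.45 and 0.75 ± 0.30. All 5 lines were above 0 at each time from 1 h on, and the mean at 1 h corresponds to 2.06-fold. The limma test against 0 called HEY1 at all 5 of these times, with adjusted p = 0.000784 at 1 h and 0.0124 at 24 h. At 1 h minus 30 min, which contains no constant dye bias, HEY1 differed by 0.89 ± 0.18 (SE). This difference was not called (limma adjusted p = 0.191, with 0.00244% of all probes called). Nor was the difference from 30 min called at any later time (limma adjusted p 0.323 to 0.979). At 24 h the lines read 0.63, 0.81, 0.68, 0.41 and 1.22, so SK-BR-3 was the only line below its own 30 min value. HEY1 reached 2-fold on 9 arrays, 3 of them in MDA-MB-361, 3 in ZR-75-30, 2 in HCC1419 and 1 in SK-BR-3. Agilent's processed ratios and the authors' values both put it at 2-fold on 14 arrays. On the values used here HEY1 was the one member to meet the study's general filter (2-fold on 4 or more arrays or 3-fold on 3 or more), which 0.917% of all probes met. With Agilent's processed ratios or the authors' values ATOH8 met it too, and 5.79% and 5.9% of all probes did. With 1 scaling factor per array HES1 probes 1 and 2 met it beside HEY1, as did 2.39% of all probes.

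The call of HEY1 at 1 h held with any 1 line left out (adjusted p 0.000395 to 0.0305). The later calls did not, and each was lost without any 1 of 3 lines: at 3 and 6 h without HCC1419, MDA-MB-361 or SK-BR-3, at 12 h without HCC1419, SK-BR-3 or ZR-75-30, and at 24 h without HCC1419, MDA-MB-361 or ZR-75-30, with means of 0.58 to 0.85 and adjusted p of 0.0518 to 0.298 in these fits. With 1 scaling factor per array in place of loess, the calls at 3, 6 and 12 h were lost (adjusted p = 0.178, 0.145 and 0.455).

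HES1, the prototype of the family, was high at 1 h and near 0 at 3 h. Its probes are A_23_P17998 at chr3:195338870-195338929, A_24_P938293 at chr3:195336738-195336797 and A_23_P6596 at chr3:195336970-195337157 (hg18, plus strand). The third spans 188 bases against 60 for the other two, so its target is not contiguous in the genome. All 3 probes were well above background on all 30 arrays. At 1 h probe 1 read 1.32 in HCC1419 and 0.52 in HCC1954, while MDA-MB-361 read 1.18, SK-BR-3 0.31 and ZR-75-30 0.87. At 3 h the same probe read 0.01, −0.15, −0.27, −0.06 and 0.11. The 2 sets of values did not overlap, all 5 lines being lower at 3 h, which was true of 0.224% of all probes.

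The 3 HES1 probes had means of 0.84 ± 0.43, 0.71 ± 0.27 and 0.57 ± 0.38 (SD, n = 5) at 1 h, with all 5 lines above 0 for each and limma adjusted p of 0.000323, 0.00047 and 0.0226. At 3 h their means were −0.07 ± 0.15, 0.05 ± 0.23 and −0.01 ± 0.24. From 6 to 24 h the means lay between 0.02 and 0.40, and none of them was called. The nearest was probe 2 at 12 h (0.40 ± 0.37, limma adjusted p = 0.0817, and 0.0296 with the cell line as a block). In a test against 0 that block takes differences between lines out of the error, so its p does not measure the spread between lines. The calls of probes 1 and 2 at 1 h held without any 1 line. That of probe 3 was lost without HCC1419, HCC1954, MDA-MB-361 or ZR-75-30 (adjusted p 0.0674 to 0.161). With 1 scaling factor per array in place of loess, the means at 1 h were 1.09, 0.89 and 0.56 and all 3 calls were lost (adjusted p = 0.0504, 0.0504 and 0.311). That of probe 3 was also lost with Agilent's processed ratios (0.0942) and the authors' values (0.169).

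The ratio of HES1 at 3 h minus that at 1 h was −0.91 ± 0.15 (SE) at probe 1, −0.66 ± 0.14 at probe 2 and −0.58 ± 0.15 at probe 3, in a contrast added after the data were seen, with the cell line as a block. The limma adjusted p over all probes was 0.0733, 0.407 and 0.99, and 0.00244% of all probes were called lower in this contrast. Probe 1 stood second of all 41000 probes by its p-value, and passed with scan day in the model (adjusted p = 0.00938), with array weights (0.0124), among brighter probes only (0.0393) or without SK-BR-3 (0.013). It did not pass with the slide as a random block (0.0678), Agilent's processed ratios (0.111), no background correction (0.124), no cell line block (0.206), the authors' values (0.453) or 1 scaling factor per array (1), nor without any other line (0.281 to 0.999). The difference was −1.30 in HCC1419, whose 1 h and 3 h arrays shared a slide, and −1.45 in MDA-MB-361, whose arrays were scanned on the same day. In the other 3 lines the 2 times were scanned on different days, and the differences were −0.76 in ZR-75-30, −0.68 in HCC1954 and −0.38 in SK-BR-3. At 1 h minus 30 min, probe 1 differed by 0.53 in SK-BR-3, 0.84 in MDA-MB-361, 0.43 in HCC1954 and 1.32 in HCC1419, in each of which the 2 arrays shared a slide, and by 0.41 in ZR-75-30, where they did not. The mean of 0.71 ± 0.15 (SE) was not called (limma adjusted p = 0.355, with 0.00244% of all probes called).

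Since HEY1 belongs to the same family, its course was set against that of HES1 within each line. At 3 h minus 1 h, HEY1 differed by −0.87 in ZR-75-30, 0.17 in SK-BR-3, −0.14 in MDA-MB-361, 0.12 in HCC1954 and −0.15 in HCC1419. This difference was higher for HEY1 than for HES1 probe 1 in 4 of 5 lines, by a mean of 0.74 ± 0.56 (SD, n = 5) over all 5. The exception was ZR-75-30, where HEY1 fell by more but still read 0.71 at 3 h, against 0.11 for HES1 probe 1. The exact permutation of signs over the 5 lines gave a two-sided p of 0.125 (0.208 adjusted over the 5 gene pairs compared, a set chosen after the data were seen), where 0.0625 is the smallest p that 5 lines allow. Against probes 2 and 3 the difference was 0.49 ± 0.80 and 0.41 ± 0.54, with exact p of 0.312 and 0.188.

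ATOH8, whose product is a bHLH factor of endothelial and other mesoderm-derived cells, is not a repressor of the Hairy type. Probe A_23_P142878 lies at chr2:85868379-85868438 (hg18, plus strand). It was dim, well above background in vehicle-treated cells on 22 arrays and in BMP4-treated cells on 25. At 30 min it read 0.00 in HCC1419 and −0.03 in HCC1954, while MDA-MB-361 read −0.05, SK-BR-3 −0.03 and ZR-75-30 −0.13. At 3 h it read 0.10, 0.23, 0.88, 0.60 and 0.72, and at 24 h 0.09, 1.13, 1.06, 0.53 and 0.49. All 5 values at 3, 6, 12 and 24 h lay above all 5 at 30 min, which was true of 0.345%, 0.281%, 0.286% and 0.661% of all probes at these times. At 30 min, however, the probe was not well above background in either channel in HCC1419 and SK-BR-3, nor in vehicle-treated cells of HCC1954. The same held for both channels of HCC1419 at 3 h. Near background the offset draws a ratio toward 0, so part of this separation rests on such values.

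The mean of ATOH8 was −0.05 ± 0.05 (SD, n = 5) at 30 min, and at 1, 3, 6, 12 and 24 h it was 0.13 ± 0.29, 0.50 ± 0.33, 0.42 ± 0.18, 0.53 ± 0.32 and 0.66 ± 0.43. It was called against 0 at 12 h (limma adjusted p = 0.0496) and 24 h (0.00474). With the cell line as a block, where p does not measure the spread between lines, it was also called at 3 h (0.0189). With the authors' values it was called at 3 and 6 h as well (means 1.04 and 0.98, adjusted p = 0.0083 and 0.0195), and so it was with Agilent's processed ratios (1.06 and 0.99, adjusted p = 0.00817 and 0.0205). Without background correction it was called at 3 h (0.59, adjusted p = 0.0177), and with 1 scaling factor per array the 12 h call was lost (0.93). With Agilent's processed ratios and the authors' values it reached 2-fold on 12 and 11 arrays, in place of 3. Without HCC1954 or MDA-MB-361, the lines with the highest values at 24 h, the 24 h mean was 0.54 and 0.56 and the call was lost (adjusted p = 0.077 and 0.0619). The 12 h call was lost without any line but HCC1954. With Agilent's own processed log ratio or the authors' normalized values, the late change defined next was 1.23 or 1.24 in place of 0.58.

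The late change, the mean ratio at 3, 6, 12 and 24 h minus that at 30 min within each line, contains no constant dye bias. For ATOH8 it was 0.22 in HCC1419 and 0.54 in HCC1954, and MDA-MB-361 gave 0.81, SK-BR-3 0.49 and ZR-75-30 0.84, with a fitted mean of 0.58 ± 0.12 (SE) and a limma adjusted p of 0.0684. For HEY1 in the same order it was 0.86, 0.52, 1.07, 0.19 and 0.56, with a fitted mean of 0.64 ± 0.14 and an adjusted p of 0.131. These were the 2 members with a late change above 0 in all 5 lines, as 3.96% of all probes had. No member was called in the late change in this fit, and 0.0927% of all probes were. Nor was any called in the F test of change over time (0.0902% of all probes) or at 24 h minus 1 h (0.0634%). ATOH8 passed when 30 min and 1 h together served as the baseline (0.49 ± 0.09, adjusted p = 0.0174), and HEY1, already high at 1 h, then had a late change of 0.19.

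The late changes of HEY1 and ATOH8 could in part be checked within 1 scan day. In HCC1419 and MDA-MB-361 all arrays were scanned on 1 day. Among the 30 min and the later arrays of 1 day, HCC1954 gave 0.19 for HEY1 and 0.21 for ATOH8 (12 h array alone), and ZR-75-30 gave 0.54 and 1.02 (3 h and 12 h arrays). In SK-BR-3 the early and late arrays were scanned on different days, and day and time cannot be told apart there. At 24 h minus 1 h, ATOH8 exceeded HEY1 by 0.82 ± 0.44 (SD, n = 5), and did so in 5 of 5 lines (exact permutation of signs, two-sided p = 0.0625, the smallest possible, 0.156 adjusted over the 5 pairs).

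**Figure D2:**
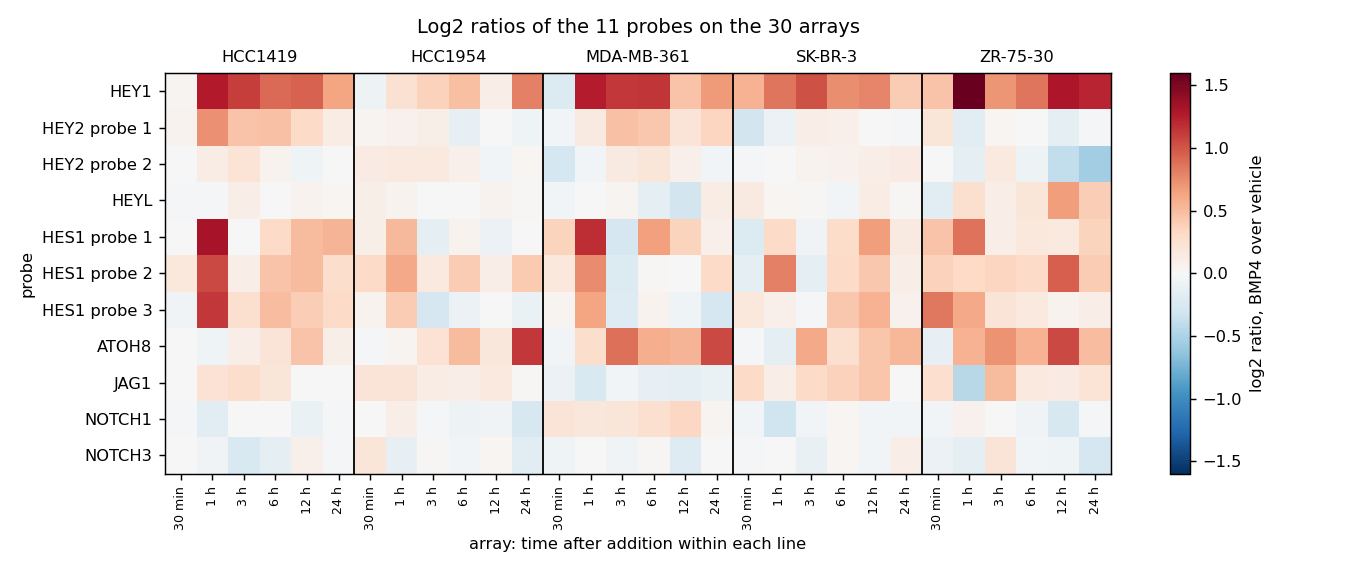
Log2 ratio of BMP4 over vehicle (colour) of the 11 probes (rows) on the 30 arrays (columns, ordered by line and within a line by time). HEY1 is the row with most values at or above 1 (9 arrays), the HES1 probes are highest at 1 h in HCC1419, and the Notch ligand and receptor rows stay within −0.44 and 0.51.

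The other Hairy-type genes were called at no time. HEY2, a close relative of HEY1 known from heart and vessel development, was read by A_24_P363408 at chr6:126123697-126123756 and A_23_P168351 at chr6:126114708-126114894 (hg18, plus strand). In HCC1419 probe 1 of HEY2 read 0.05, 0.73, 0.46, 0.47, 0.31 and 0.12 from 30 min to 24 h, and in MDA-MB-361 it read −0.05, 0.14, 0.47, 0.43, 0.21 and 0.34. These were the 2 lines in which this probe was brightest in vehicle-treated cells, and in HCC1954 and SK-BR-3, where it was not well above background in either channel, all ratios lay between −0.30 and 0.10. Probe 2, which was dimmer, read at most 0.22. Its late change was 0.37 in MDA-MB-361, against 0.41 at probe 1, and 0.05 in HCC1419, against 0.29. In MDA-MB-361, however, probe 2 started from −0.28 at 30 min and read only 0.14, 0.19, 0.08 and −0.05 from 3 to 24 h. HEYL (A_23_P430658, chr1:39862428-39862487, hg18, minus strand) was well above background in vehicle-treated cells of MDA-MB-361 and ZR-75-30 on all 6 arrays, in SK-BR-3 on 1 array and elsewhere on none, and its largest ratio was 0.67, in ZR-75-30 at 12 h. At 24 h it was above 0 in 5 of 5 lines, with a mean of 0.12 ± 0.16 (SD, n = 5) and a limma adjusted p of 0.52.

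The Notch ligand and receptor genes did not pass at any time. JAG1 (A_23_P210763, chr20:10567061-10567120, hg18, minus strand) encodes a ligand and had mean ratios between −0.03 and 0.23, the latter at 3 h (limma adjusted p = 0.34). NOTCH1 (A_23_P60387, chr9:138509585-138509644, hg18, minus strand) was measured by 10 spots per array, which were averaged. Its ratio lay between −0.32 and 0.33 on all arrays, and its late change was −0.03 ± 0.06 (SE). NOTCH3 (A_24_P399606, chr19:15132756-15132815, hg18, minus strand), a receptor best known from vascular smooth muscle, was dim, well above background in vehicle-treated cells on 14 arrays, and had a late change of −0.04 ± 0.06.

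Whether the lines differed in their response was tested by a limma F test of cell line, with time in the model. Of the 11 probes, 4 were called, where 22.2% of all probes were. HEY1 (adjusted p = 0.0331) had means over the 6 times of 1.02 ± 0.42 (SD, n = 6) in ZR-75-30, 0.82 ± 0.44 in HCC1419 and 0.32 ± 0.31 in HCC1954, with MDA-MB-361 at 0.74 ± 0.56 and SK-BR-3 at 0.73 ± 0.22. HEY2 probe 1 (0.00784) was highest in HCC1419 with 0.36 ± 0.25 and in MDA-MB-361 with 0.26 ± 0.20. JAG1 (0.0374) was below 0 on all 6 arrays of MDA-MB-361, with a mean of −0.13 ± 0.07, and above 0 on all 6 of HCC1954 and of SK-BR-3. NOTCH1 (0.0153) was above 0 on all 6 arrays of MDA-MB-361, with a mean of 0.20 ± 0.10. Without MDA-MB-361, or with 1 scaling factor per array, 0 of the 11 probes were called between lines, and 2 were called with Agilent's processed ratios or the authors' values. No member was called in the test of whether the late change itself differed between lines (smallest limma adjusted p 0.888, that of HES1 probe 3; 0.00732% of all probes called). Slides and most scan days held 1 line, and line and day cannot be told apart in these differences.

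**Figure D3:**
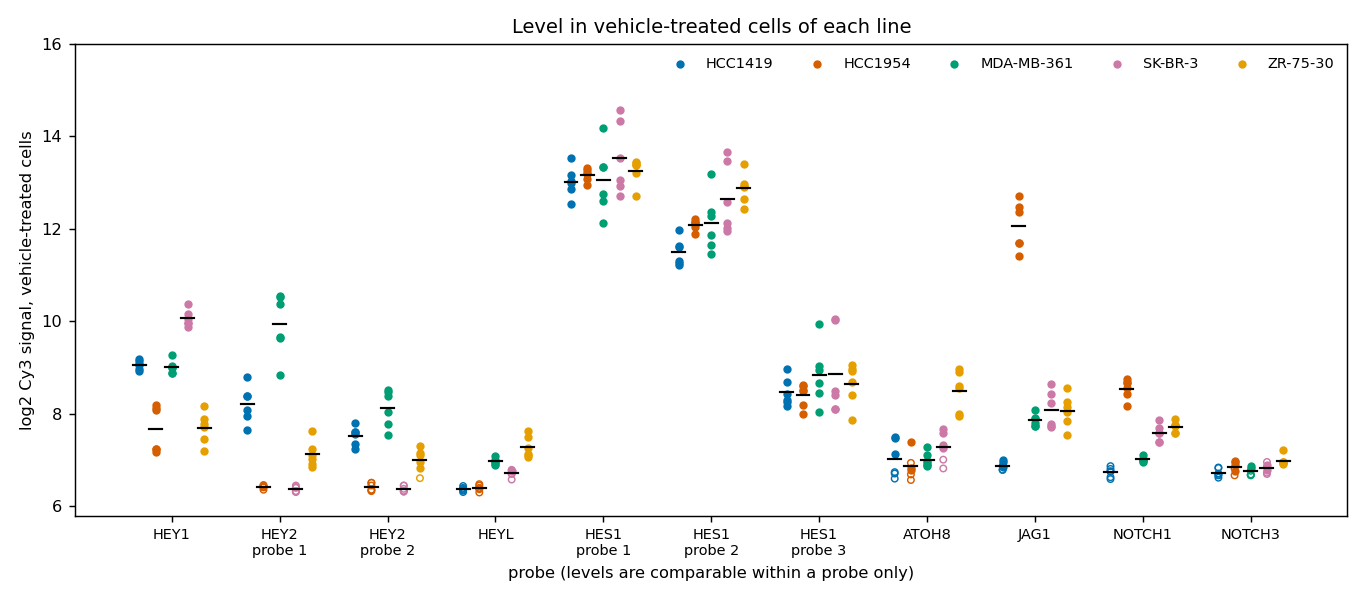
Log2 Cy3 signal of vehicle-treated cells (vertical axis) for the 11 probes (horizontal axis) in the 5 lines. Each point is 1 of 6 arrays, filled where the spot was well above background, and black bars are the means. JAG1 stands apart in HCC1954 (12.06), HEY2 in MDA-MB-361 (9.94 at probe 1) and HEY1 in SK-BR-3 (10.06).

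The lines differed in the level of these genes without BMP4. The log2 Cy3 signal of vehicle-treated cells, comparable within a probe only, differed between lines for 9 of the 11 probes (limma F test, adjusted p under 0.05; 73.1% of all probes were called), the exceptions being HES1 probes 1 and 3. The level of JAG1 was 12.06 ± 0.53 (SD, n = 6 arrays) in HCC1954, 8.09 ± 0.40 in SK-BR-3, 8.06 ± 0.34 in ZR-75-30, 7.86 ± 0.14 in MDA-MB-361 and 6.88 ± 0.09 in HCC1419. HCC1954 was thus 15.6-fold above the next line, the middle 3 overlapped, and HCC1419, where JAG1 was well above background on 3 of 6 arrays, lay below them all. NOTCH1 was also highest in HCC1954, at 8.55 ± 0.22, followed by ZR-75-30 at 7.72 ± 0.12 and SK-BR-3 at 7.59 ± 0.18, which overlapped, and by MDA-MB-361 at 7.02 ± 0.06. In HCC1419 all arrays had NOTCH1 at a signal not well above background, and HCC1954 was at least 3.51-fold higher. A bound of this kind sets the mean of the brighter line against the lowest signal that was well above background on the dimmer line's arrays, or the probe's own value where that was higher.

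HEY1 was highest in SK-BR-3 at 10.06 ± 0.18, followed without overlap by HCC1419 at 9.06 ± 0.10 and MDA-MB-361 at 9.02 ± 0.14, which overlapped. ZR-75-30 at 7.70 ± 0.34 and HCC1954 at 7.68 ± 0.51 were lowest and did not differ beyond their spread. In HCC1954 the HEY1 level moved with the scan day, from 8.09 to 8.19 on the 3 arrays of one day (30 min, 1 h and 12 h) and from 7.17 to 7.25 on the 3 of the other, and its part in the result was not tested. HEY2 probe 1 was highest in MDA-MB-361 at 9.94 ± 0.67, then in HCC1419 at 8.21 ± 0.40 and ZR-75-30 at 7.13 ± 0.28, with no overlap between neighbours. In MDA-MB-361 it was at least 11-fold above HCC1954 and at least 10.1-fold above SK-BR-3. At probe 2 MDA-MB-361 overlapped with HCC1419 and HCC1419 with ZR-75-30, while ZR-75-30 was clear of HCC1954. ATOH8 was highest in ZR-75-30 at 8.51 ± 0.44, clear of SK-BR-3 at 7.28 ± 0.33, and the other lines lay between 6.87 and 7.03 and overlapped. HES1 was bright in every line at probe 1, from 13.02 to 13.52, and lines next to each other in level overlapped at each of its 3 probes. At probe 2, which was called between lines, HCC1419 at 11.50 ± 0.30 and ZR-75-30 at 12.88 ± 0.32 were the extremes and did not overlap.

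**Figure D4:**
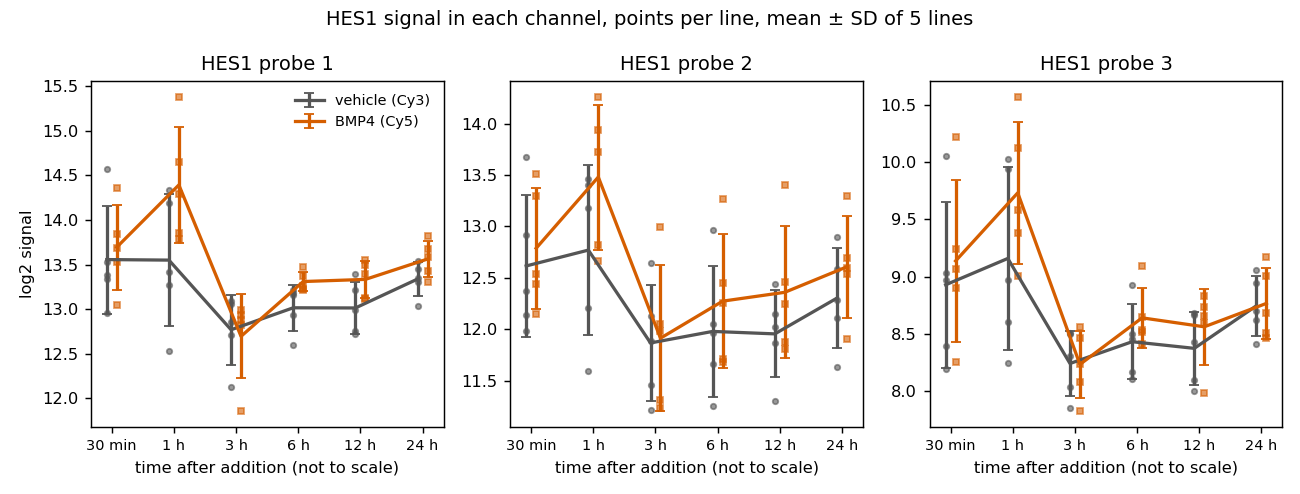
Log2 signal of the 3 HES1 probes in vehicle-treated cells (Cy3, grey) and BMP4-treated cells (Cy5, orange) at the 6 time points. Points are the 5 lines, and lines with bars are means ± SD. BMP4-treated cells are above vehicle at 1 h (14.39 against 13.55 at probe 1), and both are lower at 3 h (12.70 and 12.77).

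The 2 channels were also read apart for HES1. In vehicle-treated cells probe 1 had a mean of 13.56 ± 0.61 (SD, n = 5) at 30 min, and of 13.55 ± 0.74, 12.77 ± 0.39 and 13.34 ± 0.19 at 1, 3 and 24 h. In BMP4-treated cells it was 13.69 ± 0.47, 14.39 ± 0.65, 12.70 ± 0.47 and 13.56 ± 0.20 at these times. At 3 h minus 1 h, the vehicle signal of probe 1 differed by 0.33 in HCC1419, −0.18 in HCC1954, −0.71 in ZR-75-30, −1.28 in SK-BR-3 and −2.06 in MDA-MB-361. Probes 2 and 3 were lower in 5 and 4 of 5 lines. The fitted vehicle difference was −0.78 ± 0.27 (SE) at probe 1, −0.90 ± 0.20 at probe 2 and −0.92 ± 0.30 at probe 3, and none was called (limma adjusted p 0.219 to 0.24, 0.00488% of all probes called, a test added after the data were seen). Only in HCC1419 did the 2 arrays share a slide, and a signal of 1 channel also carries differences between slides.

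Other Notch genes and bHLH genes served as a frame, from lists chosen with earlier results of these data known. The other ligands (5 genes), other receptors (2), processing and modulator genes (20), nuclear complex genes (6 of 7 on the array), other HES, BHLHE and TLE genes (11 of 13) and proneural and E protein genes (12) had 0 probes called in the late change by limma, and their list medians lay between −0.10 and 0.01 against 0.01 for all probes. Against 0, 3 of these genes were called at any time, and the share of all probes called at any time is not given here. DLL1, a Notch ligand, was higher at 1 h (0.35, adjusted p = 0.041). BHLHE40, a repressor related to the HES family and named BHLHB2 on the array, was also higher at 1 h (0.30, adjusted p = 0.0073). At this time 0.612% of all probes were called higher. ASCL2, a proneural-type factor, was lower at 24 h by 1 of its 2 probes (−0.35, adjusted p = 0.0334), while the other read −0.03. At 24 h 214 of the 41000 probes were called lower. The 3 RBPJ probes were between −0.20 and 0.05 at 1 h and were not called.

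The known BMP targets on the same arrays give a scale for these values. ID1 had a mean ratio of 1.33 at 1 h and 1.42 at 24 h, and the 5 probes of ID1 to ID4 had late changes of 0.94 to 1.33, all called. SMAD6, an inhibitory SMAD, read 0.09 at 1 h and had a late change of 0.75 (adjusted p = 0.00164). SMAD7, the other inhibitory SMAD, was called at 1 h alone (0.65, adjusted p = 0.000628). The differences between these genes and the members were not tested.

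The genes whose ratios were most like those of the 3 responding members over the 30 arrays were taken from 21158 named probes well above background on at least 15 arrays. For HES1 probe 1 these were SNF1LK, a kinase (Pearson r = 0.753), OVOL1, a zinc finger repressor of epithelia (0.676), DLL1 (0.628), FLJ34077 (0.58) and BCOR, a corepressor (0.579). For ATOH8 they were BMF, a pro-apoptotic BCL2-family gene (0.776), ST3GAL5, a sialyltransferase (0.735), DYNLT3 (0.721), ANKRA2 (0.712) and SAMD11 (0.702). For HEY1 they were NFKBIA, the NF-kappaB inhibitor (0.685), C9orf130 (0.671), SNAP29 (0.668), C21orf51 (0.665) and LOC388965 (0.663). These are descriptions of 30 arrays that share 5 lines, and with each line's mean removed the values were 0.582 to 0.805. Among the members, HES1 probe 1 correlated with probes 2 and 3 at 0.611 and 0.788, HEY1 with ATOH8 at 0.416 and HEY1 with HES1 probe 1 at 0.403, and ATOH8 with HES1 probe 1 at −0.223.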

How the data were processed

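Each 2-colour Agilent array held BMP4 RNA in Cy5 and vehicle RNA in Cy3. Per the file headers, the deposited spot intensities, flags and log10 ratios were extracted with Agilent Feature Extraction 9.5.1.1, and the probe positions are in hg18. The authors also deposited normalized log2 ratios, whose column medians were 0 and which followed the processed signals (r of at least 0.999859). Here mean signals were corrected with normexp (offset 50), normalized by loess within arrays and averaged per probe in limma 3.58.1 (R 4.3.3), after removal of 1639 control spots. Time points were tested against 0 without a block, and time differences with the cell line as a block, by lmFit and eBayes, with p-values adjusted after Benjamini-Hochberg across 41000 probes and a threshold of 0.05. Replicate numbers stand for the cell lines, so that they pair arrays. Deviations from the mean of each time point had a mean r of 0.232 in the 75 same-line pairs. The mean r of -0.0593 in 300 others follows from removing that mean and is no separate comparison. Many same-line arrays also shared a slide or scan day, which this r does not tell apart from the line. Vehicle levels are log2 Cy3 after Aquantile scaling. Named genes were the members, list genes that passed and the 5 probes closest to HEY1, HES1 and ATOH8. The fit of the late change was tested on simulated data with independent noise. The tests against 0 were not examined in this way. Members and lists were chosen with earlier results of these data known.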

Additional observations from a re-analysis of the deposited data

Results flagged for a closer look

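Of 66 groups of 5 lines (11 probes at 6 times), 6 held a line that stood far from the other 4. The rule would flag about 1 in 20 independent groups by chance, but these groups share lines and genes. It was not run on the other probes, so the count shows nothing particular to the members. In ZR-75-30 HEY2 probe 2 read −0.56 at 24 h (nearest line −0.05), HEYL read 0.39 at 24 h (nearest 0.12) and HES1 probe 3 read 0.84 at 30 min (nearest 0.17). In MDA-MB-361 NOTCH1 read 0.2 at 30 min and 0.19 at 3 h, with the nearest line at 0.01 both times. In HCC1954 NOTCH1 read −0.26 at 24 h, with the nearest line at −0.04.

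The ratio differed between lines, by the limma F test over all probes, for HEY1 (adjusted p = 0.0331), HEY2 probe 1 (adjusted p = 0.00784), JAG1 (adjusted p = 0.0374) and NOTCH1 (adjusted p = 0.0153). The part of scan day in these differences was not tested.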

How the results depend on the processing

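With the cell line as a replicate block, 2 probes were called at 3 h in place of 1 (ATOH8 joined, 0.50, adjusted p = 0.0189), HES1 probe 2 passed at 12 h, and no other call against vehicle changed. The p-values of this setting do not measure the spread between lines. With Agilent's processed log ratio, the late change of ATOH8 was 1.23 and passed. The probes called were then 1 in the late change, 3 at 1 h, 2 at 3 h, 2 at 6 h, 1 over time and 2 between lines, and NOTCH1 (0.01), NOTCH3 (0.10) and HES1 probe 3 at 3 h (0.02) turned sign. With the authors' values, HEY1 (0.79) and ATOH8 (1.24) passed in the late change, with 2 called there, 3 at 1 h, 2 at 3 h, 2 at 6 h, 1 over time and 2 between lines, and HEY2 probe 1 (−0.01), NOTCH3 (0.11) and HES1 probe 3 at 3 h (0.00) and 24 h (−0.01) turned. With 1 factor per array, HES1 probe 1 at 1 h was 1.09 and lost its call, 1 probe was called at 1 h, 0 at 3, 6 and 12 h and 0 between lines, and HEY2 probe 2 was −0.01. Without background correction, HEY1 (0.67) and ATOH8 (0.67) passed in the late change, with 2 called there, 2 at 3 h and 1 over time, and NOTCH3 was 0.00. Among probes above background on 15 arrays, ATOH8 (0.58; 1 called) and HES1 probe 1 at 3 h minus 1 h (−0.91) passed. With array weights, HEY1 (0.70; 1 called) and HES1 probe 1 at 3 h minus 1 h (−0.97) passed, and 2 were called over time. With scan day as a block, HES1 probe 1 at 3 h minus 1 h was −1.11 and passed, 1 was called at 24 h minus 1 h and 1 over time, and the late changes of HES1 probe 1 (−0.10) and JAG1 (0.06) turned. With 30 min and 1 h as the baseline, ATOH8 (0.49; 1 called) passed, and HES1 probe 1 (−0.30), HES1 probe 2 (−0.18) and JAG1 (0.07) turned. The cause of these changes was not tested. The share of all probes called under each setting, or with a line left out, is not given. These counts therefore describe the members alone.

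With each line left out in turn, the late change of HEY1 was 0.53 to 0.75 and of ATOH8 0.51 to 0.67, ATOH8 at 24 h was 0.54 to 0.80, and HES1 probe 1 at 3 h minus 1 h was −1.05 to −0.78. The probes called were 3 to 4 at 1 h, 0 to 1 at 3 h and 6 h, 0 to 2 at 12 h and 24 h, 0 to 1 over time and 0 to 4 between lines. Late changes that turned sign spanned −0.04 to 0.11 for HEY2 probe 2, −0.03 to 0.12 for HEYL, −0.05 to 0.14 for HES1 probe 1, −0.24 to 0.04 for HES1 probe 3, −0.04 to 0.01 for JAG1 and −0.07 to 0.00 for NOTCH3. So did HES1 probe 2 at 3 h (−0.03 to 0.11), HES1 probe 3 at 3 h (−0.07 to 0.06) and 24 h (−0.05 to 0.10), and HEY1 at 3 h minus 1 h (−0.26 to 0.00). ATOH8, HEY2, HEYL and NOTCH3 were near background in some lines, where a ratio is compressed toward 0 by the offset.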
